A study of Mus musculus with 19 samples.

Results

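The genes described here were nearly silent in the length-separated (ladder) libraries of wild-type (WT) neural progenitor cells and expressed in those of Mettl14 knockout (KO) cells. By mean level, most of them were not silent in a second set of WT libraries, which differed among themselves and are described further on. They were chosen by a rule on measured levels: autosomal protein-coding genes with a mean CPM (a gene's estimated counts, scaled to a common library size) under 0.5 in the 4 WT ladder libraries, a mean of 4 CPM or more in the 4 KO ladder libraries, and no overlap between the genotypes. The rule found 19 of 20797 autosomal protein-coding genes, or 0.0914%, among which 8509 lay under the WT ceiling. The same rule turned round, for genes on in WT and off in KO, found 4 genes. Because the KO and WT ladder levels chose the 19 genes, their levels in those libraries are given as a description, without a test.

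The cells were neural progenitors taken from cortices of mouse embryos, either Mettl14 WT or Mettl14 conditional knockout, and grown in culture with 20 ng/ml of each of the mitogens EGF and FGF2. The labels used here name no Cre driver, strain or embryonic age, and do not say whether replicates were separate cultures or animals, so the spread between libraries may be partly technical. In ladder libraries (4 WT, 4 KO) the mRNA was separated by length into 7 bands, each with its own index, and read as 75-bp pairs. Added to these were 3 standard WT libraries without length separation, read as single 50-bp reads, and nanopore long reads from both genotypes, either of RNA itself (native RNA) or of unamplified cDNA (direct cDNA), where the 2 replicates of a genotype were assembled together.

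METTL14 binds RNA for the catalytic subunit METTL3, and together they place the methyl mark m6A (N6-methyladenosine) on adenosines of messenger RNA. The mark is read by proteins that, among other effects, shorten the life of the transcript, and in the embryonic cortex the complex is known for its role in the timing of progenitor divisions. The libraries measure the RNA present, and neither its synthesis nor its decay.

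Mettl14 itself was at 25.2 ± 3.66 CPM (SD, n = 4) in the WT ladder libraries and at 6.96 ± 0.932 CPM (SD, n = 4) in the KO ladder libraries, without overlap. Library totals were 103752444 to 126921887 estimated counts in WT ladder, 104899560 to 118197946 in KO ladder and 12084507 to 13987929 in standard libraries, so 3 counts correspond to 0.0236 to 0.0289 CPM in a ladder library and to 0.215 to 0.248 CPM in a standard one. The Y-linked gene Ddx3y was at 0.0109 ± 0.0127 CPM in WT ladder and 3.85 ± 0.643 CPM in KO ladder libraries (SD, n = 4 each), and Xist was at 151 ± 27.4 and 49.1 ± 11.1 CPM. Markers of sex thus moved with genotype, and the sex make-up of the cultures and the genotype cannot be told apart in any KO against WT value below.

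The promoter windows of 5 of the genes are shown because they span the range among the 19: the 4 genes with the highest KO level per length, and the gene with the densest CpG. Each window runs from 250 bases before to 50 after the RefSeq start, on the gene's strand in GRCm38.p6. Capitals mark CG dinucleotides in 4 of them. In Serpinb11, whose window holds no CG, capitals instead mark the 5 bases between and including the 5′ ends that StringTie gave to the KO transcript in the 2 long-read chemistries.
Cyba (chr8:122432891-122433190, minus strand): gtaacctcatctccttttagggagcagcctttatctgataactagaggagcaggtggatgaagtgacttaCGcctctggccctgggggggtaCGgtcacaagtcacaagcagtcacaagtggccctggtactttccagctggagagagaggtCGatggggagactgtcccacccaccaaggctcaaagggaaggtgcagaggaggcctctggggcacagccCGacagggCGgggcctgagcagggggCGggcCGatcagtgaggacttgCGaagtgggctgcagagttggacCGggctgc
Tmem132c (chr5:127241576-127241875, plus strand): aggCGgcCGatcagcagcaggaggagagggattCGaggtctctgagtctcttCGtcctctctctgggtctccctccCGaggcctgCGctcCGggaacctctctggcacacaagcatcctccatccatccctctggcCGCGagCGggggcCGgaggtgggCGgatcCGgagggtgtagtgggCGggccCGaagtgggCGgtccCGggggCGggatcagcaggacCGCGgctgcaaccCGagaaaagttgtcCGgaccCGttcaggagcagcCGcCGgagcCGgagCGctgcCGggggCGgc
Slco1c1 (chr6:141524104-141524403, plus strand): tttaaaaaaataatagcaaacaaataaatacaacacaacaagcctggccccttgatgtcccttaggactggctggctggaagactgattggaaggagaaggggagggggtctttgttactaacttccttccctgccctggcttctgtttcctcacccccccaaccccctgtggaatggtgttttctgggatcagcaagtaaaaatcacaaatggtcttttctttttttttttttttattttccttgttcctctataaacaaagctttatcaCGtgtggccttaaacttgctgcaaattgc
Serpinb11 (chr1:107362064-107362363, plus strand): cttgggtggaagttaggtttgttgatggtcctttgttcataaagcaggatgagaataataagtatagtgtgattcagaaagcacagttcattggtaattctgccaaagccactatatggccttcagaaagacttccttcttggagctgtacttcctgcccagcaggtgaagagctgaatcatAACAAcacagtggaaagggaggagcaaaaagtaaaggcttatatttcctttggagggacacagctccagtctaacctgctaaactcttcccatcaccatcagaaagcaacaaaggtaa
Gdf10 (chr14:33923337-33923636, plus strand): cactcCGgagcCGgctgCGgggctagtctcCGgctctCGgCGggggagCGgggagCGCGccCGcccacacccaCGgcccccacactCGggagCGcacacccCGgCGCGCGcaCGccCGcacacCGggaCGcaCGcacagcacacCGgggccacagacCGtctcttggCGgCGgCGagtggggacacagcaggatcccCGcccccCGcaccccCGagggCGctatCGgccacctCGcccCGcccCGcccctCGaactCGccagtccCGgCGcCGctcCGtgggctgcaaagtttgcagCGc

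Windows were matched for 18 of the 19 genes. They fell into both CpG classes: the ratio of observed to expected CpG was 0.6 or more in 7 of 18 (38.9%). So it was in 51.8% of the 15703 autosomal protein-coding genes with a window. The share was 81.2% among genes at 4 CPM or more in KO and 12.6% among genes under 0.5 CPM in WT. The ratio was 0.96 in Gdf10, 0.79 in Tmem132c and 0.76 in Atoh8, and 0.339 in Cyba, 0.0763 in Slco1c1 and 0 in Serpinb11. The median was 0.271 in the 18 windows, between 0.210 for genes under 0.5 CPM in WT and 0.807 for genes at 4 CPM or more in KO. The letters TATAAA, searched on both strands, occurred in 2 of 18 windows (Slco1c1 and C3, 11.1%) and in 12.9% of all windows. For 15 genes the leading KO transcript began within 500 bp of the RefSeq start. For Grin2c, Nr2f2 and Thsd4 it began 1814, 6153 and 13909 bp downstream, so those 3 windows do not cover the start of that transcript. The Serpinb11 window does not cover it either, since the annotated start of its leading transcript (-385 bp from the RefSeq start) lies upstream of the window.

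**Figure D1:**
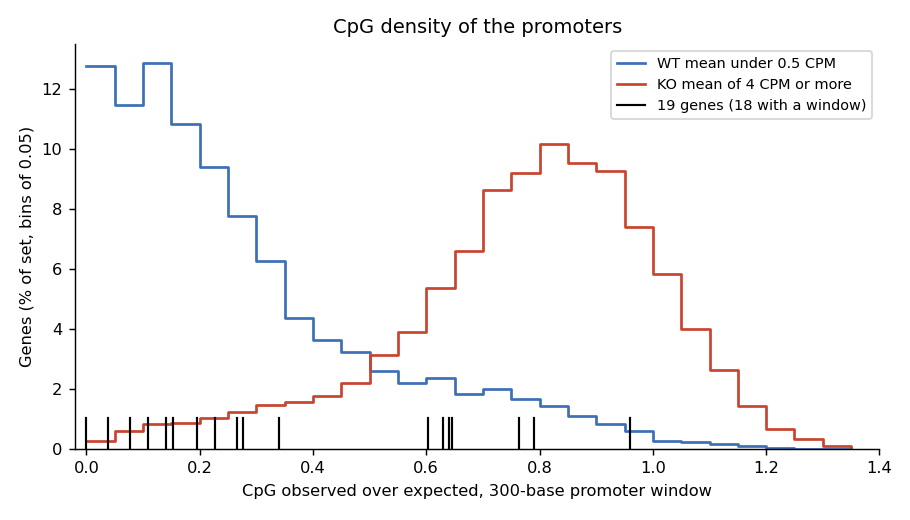
Ratio of observed to expected CpG in the 300-base promoter window (x axis) against the percentage of genes per bin of 0.05 (y axis), for genes under 0.5 CPM in WT (blue line) and genes at 4 CPM or more in KO (red line). Black ticks are the 18 genes with a window: 7 lie at 0.6 or above and 11 below 0.34.

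By known role, 6 of the 19 encode secreted or matrix proteins, 3 membrane proteins, 3 transporters, 5 nuclear proteins and 2 cytoplasmic proteins. They lie on 11 chromosomes: Serpinb11, Gulp1 and Ifi203 on chromosome 1, Slco1c1, Cxcl12 and Atoh8 on 6, Frzb and Tspyl3 on 2, Perm1 and Slc25a34 on 4, Tmem132c and Spon2 on 5, Grin2c and Abca8a on 11, and Nr2f2, Cyba, Thsd4, Gdf10 and C3 singly on 7, 8, 9, 14 and 17. Mean WT levels ran from 0.00902 to 0.483 CPM and mean KO levels from 4.08 to 23.6 CPM. As background, in 22.9% of 18715 autosomal protein-coding genes every KO library lay above every WT library. Per transcript length, KO means ran from 0.588 to 21.5 TPM, which placed the 19 genes between percentiles 10.1 and 75.3 (median 23.9) of the genes at 0.5 CPM or more in KO, so that most were low even when on. In bulk RNA, more cells that express a gene and more of its RNA per cell cannot be told apart.

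Among the secreted proteins, Frzb, a secreted antagonist of Wnt ligands, was at 0.386, 0.311, 0.591 and 0.438 CPM in the WT ladder libraries and at 8.47, 10.8, 10.8 and 8.55 CPM in the KO ladder libraries. Cxcl12, the chemokine that signals through CXCR4, was at 0.501, 0.505, 0.441 and 0.484 CPM in WT and at 9.78, 8.95, 8.67 and 7.995 CPM in KO. Gdf10, a ligand of the TGF-β superfamily, was at 0.122, 0.100, 0.125 and 0.0928 CPM in WT and at 5.24, 6.43, 6.41 and 5.95 CPM in KO. Cxcl12 and Gdf10 formed a tight group in each genotype, while Frzb ran from 0.311 to 0.591 CPM in WT. The fitted log2 differences of Frzb, Cxcl12 and Gdf10 were 4.46 ± 0.20, 4.18 ± 0.12 and 5.72 ± 0.16 (SE), in that order. Here and below, the SE of a log2 difference is an approximate one, derived from the F statistic of the fit.

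C3, the central protein of the complement cascade, was at 0.395, 0.505, 0.473 and 0.561 CPM in WT and at 7.04, 7.70, 8.59 and 5.79 CPM in KO. Spon2, a matrix protein of the spondin family, was at 0.337, 0.345, 0.276 and 0.314 CPM in WT and at 8.09, 8.08, 7.94 and 6.39 CPM in KO, with KO replicate 4 apart below the rest. Thsd4, an ADAMTS-like protein that binds fibrillin, was at 0.101, 0.290, 0.355 and 0.273 CPM in WT and at 7.77, 10.8, 0.601 and 3.61 CPM in KO. Thsd4 had the widest spread of the 19 in KO: replicate 3 stood 1.69 times above the highest WT library, and without KO replicate 2 the gene no longer met the rule.

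Of the membrane proteins, Tmem132c, a transmembrane protein of little-known function, was at 0.202, 0.194, 0.173 and 0.181 CPM in WT and at 22.5, 23.6, 28.3 and 20.1 CPM in KO. Grin2c, a regulatory subunit of the NMDA glutamate receptor, was at 0.513, 0.260, 0.159 and 0.420 CPM in WT and at 18.4, 17.5, 24.5 and 17.1 CPM in KO. Cyba, the p22phox subunit that anchors the superoxide-producing NADPH oxidases in the membrane, was at 0.0289, 0.168, 0.134 and 0.123 CPM in WT and at 14.4, 12.4, 13.2 and 17.8 CPM in KO. Cyba had the highest KO level per length of the 19, at 21.5 TPM, and Tmem132c followed at 4.63 TPM. Their log2 differences were 6.95 ± 0.30 and 6.96 ± 0.15 (SE), and that of Grin2c was 5.85 ± 0.30.

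Slco1c1, a transporter of thyroid hormone known from brain endothelium and astrocytes, was at 0.386, 0.294, 0.307 and 0.314 CPM in WT and at 14.3, 16.6, 16.6 and 13.9 CPM in KO. Abca8a, an ATP-binding cassette lipid transporter, was at 0.212, 0.127, 0.0867 and 0.105 CPM in WT and at 13.8, 11.2, 10.8 and 7.71 CPM in KO. Slc25a34, a member of the mitochondrial carrier family, was at 0.344, 0.284, 0.706 and 0.482 CPM in WT and at 4.16, 5.69, 6.28 and 5.19 CPM in KO. All 3 transporters were separated between the genotypes by more than the range within either, with log2 differences of 5.55 ± 0.14, 6.35 ± 0.27 and 3.52 ± 0.26 (SE).

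Among the nuclear proteins, Nr2f2, the orphan nuclear receptor COUP-TFII, was at 0.222, 0.145, 0.134 and 0.209 CPM in WT and at 5.72, 6.77, 6.38 and 5.14 CPM in KO. Perm1, a regulator of mitochondrial genes known from muscle, was at 0.0659, 0.380, 0.123 and 0.592 CPM in WT and at 8.30, 9.18, 13.1 and 9.07 CPM in KO. Atoh8, a basic helix-loop-helix transcription factor, was at 0.357, 0.378, 0.496 and 0.447 CPM in WT and at 3.66, 3.83, 4.74 and 4.07 CPM in KO. Atoh8 was fairly even within each genotype, while Nr2f2 ran from 0.134 to 0.222 CPM in WT. The 4 WT libraries of Perm1 spread over a wide range below 0.6 CPM. Nr2f2 shares 643 bp of exon with the antisense gene B130024G19Rik, itself measured at 0.0194 (WT) and 0.230 (KO) CPM, and the library kit does not mark strand, so reads of the overlap cannot be assigned.

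Ifi203, of the interferon-inducible HIN-200 family, was at 0.300, 0.541, 0.480 and 0.537 CPM in WT and at 4.58, 4.95, 5.00 and 3.89 CPM in KO. Tspyl3, of the nucleosome assembly protein family, was at 0.222, 0.227, 0.315 and 0.285 CPM in WT and at 3.81, 5.07, 5.47 and 3.90 CPM in KO. These levels gave log2 differences of 3.30 ± 0.17 and 4.10 ± 0.18 (SE), near the low end of the 19. Ifi203 shares 37 bp of exon on the same strand with its neighbour Mndal, so some of its counts are uncertain.

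Both cytoplasmic proteins were separated in the same way. Serpinb11, a clade B serpin, was at 0.0193, 0.0168, 0 and 0 CPM in WT, which is 4 estimated counts in all 4 libraries together, and at 10.1, 10.1, 10.2 and 8.25 CPM in KO. With WT at the level of single reads, its ratio of means of 1071 rests on those few counts. Gulp1, an adaptor in the engulfment of dead cells, was at 0.328, 0.345, 0.378 and 0.409 CPM in WT and at 5.80, 6.04, 6.48 and 4.49 CPM in KO. Across the 19 genes, KO replicate 4 was lowest for 11 and KO replicate 3 highest for 11, as they were for 62.2% and 43.8% of all genes.

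**Figure D2:**
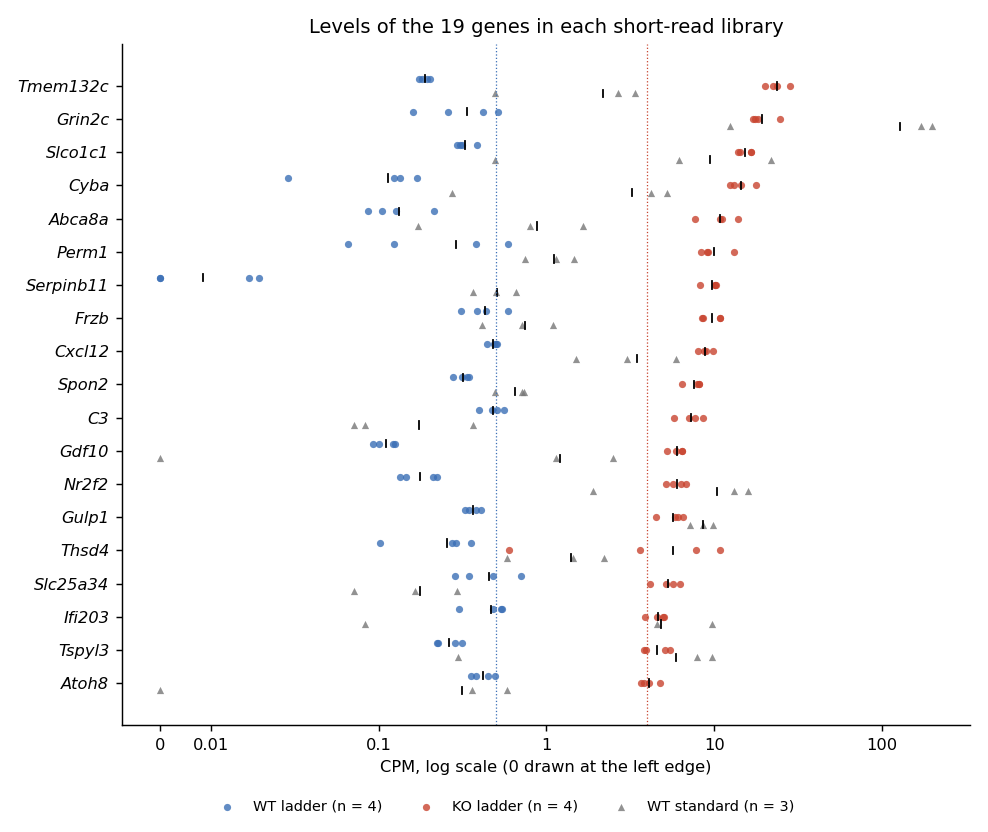
CPM of the 19 genes on a log axis (0 drawn at the left edge): WT ladder libraries (blue, n = 4), KO ladder libraries (red, n = 4) and standard WT libraries (grey triangles, n = 3), with means as black ticks. Dotted lines mark 0.5 and 4 CPM; Grin2c in standard WT libraries reaches 198 CPM, far to the right of its KO libraries.

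Just inside the WT ceiling lay C3 at 0.483, Cxcl12 at 0.483 and Ifi203 at 0.464 CPM, and just inside the KO floor Atoh8 at 4.08, Tspyl3 at 4.56 and Ifi203 at 4.61 CPM. Failing the WT ceiling alone were Hpse (0.546 CPM in WT), Mmp2 (0.580 CPM) and Hspa12b (0.653 CPM). Failing the KO floor alone were Otx2 (3.75 CPM in KO), Cox8b (3.56 CPM) and Dll4 (3.49 CPM). A list by TPM in place of CPM, with the same limits, held 11 genes, of which Cyba, Tmem132c, Slco1c1 and Serpinb11 were among the 19.

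The standard WT libraries, which the rule did not use, gave a different WT level for most of the 19. By the mean of the standard libraries, only C3, Slc25a34 and Atoh8 were under 0.5 CPM, at 0.173, 0.176 and 0.312 CPM, or 3 of 19 genes. In comparison, 86.0% of 8436 genes under 0.5 CPM in WT ladder libraries were also under 0.5 CPM in standard ones, and so were 54.0% of the 1730 genes at 0.1 to 0.5 CPM in WT ladder libraries, the range that holds all of the 19 but Serpinb11. The standard mean exceeded the WT ladder mean for 16 of 19 genes, against 70.8% of those 1730 genes. In 11 of 19 the lowest standard library lay above the highest WT ladder library, against 35.1% of the 1730. The means hide a difference between libraries. In standard library 1 alone, Tmem132c, Slco1c1, Cyba, Abca8a, Frzb, Spon2, Gdf10, Ifi203 and Tspyl3 were also under 0.5 CPM. Atoh8 was at 0.579 CPM in that library.

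For 5 of the 19 genes the standard WT mean was above the KO mean. Grin2c was at 12.4, 198 and 171 CPM in standard libraries 1, 2 and 3. Nr2f2 was at 1.90, 13.2 and 15.99 CPM, Ifi203 at 0.0828, 4.58 and 9.70 CPM, and Tspyl3 at 0.297, 7.94 and 9.64 CPM. Gulp1, at 7.20, 9.79 and 8.61 CPM, was the only one of the 5 to exceed its KO mean also in library 1. Slco1c1, at 0.497, 6.15 and 21.8 CPM, also passed 4 CPM on average. At the other end, Serpinb11 was at 0.662, 0.5004 and 0.365 CPM and C3 at 0.0828, 0.0715 and 0.365 CPM, far under their KO levels.

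The standard libraries were themselves unlike one another: library 1 was lowest for 15 of the 19 genes, against 48.5% of all genes. Some neuronal markers moved in the same way. Stmn2, a growth-cone protein of neurons, was at 0.0828, 165 and 248 CPM in libraries 1, 2 and 3, Dcx, a microtubule protein of young neurons, at 9.11, 292 and 386 CPM, and Tubb3, neuronal tubulin, at 7.53, 200 and 334 CPM (these 3 were chosen after their values were seen). The summed level of all 12 neuron markers, these 3 included, differed less, at 921, 1782 and 2215 CPM in libraries 1, 2 and 3. It was 255 to 364 CPM in WT ladder and 223 to 323 CPM in KO ladder libraries. Other lists also separated the 2 kinds of WT library: 21 interferon-stimulated genes summed to 70.1 to 86.3 CPM in standard and to 2543 to 2853 CPM in WT ladder libraries. The 12 endothelial and mural markers summed to 822 to 1991 CPM in standard and 8.43 to 10.9 CPM in WT ladder libraries, nearly all of it from Pecam1, an endothelial adhesion protein, at 803, 1970 and 851 CPM in standard libraries 1, 2 and 3. The 12 meningeal fibroblast markers summed to 29.5 to 50.4 CPM in standard and 1.34 to 1.68 CPM in WT ladder libraries. The files also differed in their targets, 150173 in ladder files and 107368 or 116067 in standard ones. Targets without annotation, which enter no gene's CPM, took 11.9% to 13.4% of ladder counts and 0.548% to 0.583% of standard counts. The part of culture make-up, read length, length separation and target set in the different WT levels was not tested.

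In KO the leading transcript of all 19 genes was protein coding. For Perm1, Gdf10, Slc25a34 and Tspyl3 only 1 transcript was quantified, so its share is 100% by construction. Of the other 15 genes, the leading transcript held 80% or more of the counts in 10 on average. Spon2 was split, with 50.1 ± 14.6% (SD, n = 4) in its coding transcript and most of the rest in transcripts with a retained intron, and Ifi203 was split among its transcripts, with 50.1 ± 8.16% in the leading one. The leading transcript of Gulp1 held 88.0, 56.5, 97.6 and 52.5% in KO replicates 1 to 4, the rest going mainly to a form marked for nonsense-mediated decay. Slco1c1 held 92.7, 91.6, 61.1 and 92.3%, with replicate 3 apart. In standard WT libraries the leading KO transcript held under 50% for 6 of the 19. It had 42.7% of Grin2c counts, against 94.0 ± 2.67% (SD, n = 4) in KO, and next to none of those of Slco1c1 and Thsd4. For Slco1c1 and Thsd4 nearly all estimated counts there were assigned to other annotated transcripts. That assignment rests on shorter single reads and another target set.

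**Figure D3:**
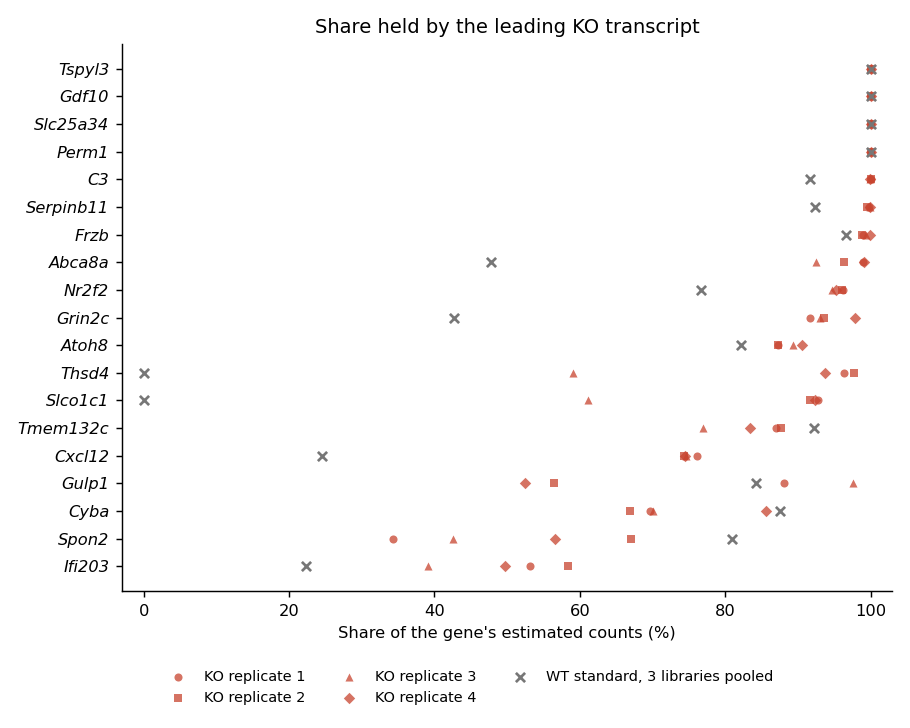
Share of each gene's estimated counts held by the leading KO transcript (x axis, percent) in the 4 KO ladder libraries (red, one symbol per replicate) and in the 3 standard WT libraries pooled (grey crosses). The 4 genes at the top have a single quantified transcript and so a fixed share of 100%, and shares spread between replicates in Gulp1 and Spon2; for Slco1c1 and Thsd4 the standard share lies at the left edge.

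Long reads gave a second measure in both genotypes, with replicates pooled in 1 assembly and so without a test. Assembled by StringTie were 7 of the 19 genes in native RNA and 8 in direct cDNA, and 9 in neither. In native RNA, 3 of those 7 genes (42.9%) were at least 2-fold higher in KO and 1 (14.3%) was at least 2-fold lower. Among all 10460 assembled genes, 14.8% were higher and 20.3% lower. Serpinb11 was absent from the WT assembly and at 34.8 TPM in KO, Cyba was at 6.51 TPM in WT and 66.4 TPM in KO, and Grin2c at 15.02 and 43.7 TPM. The Grin2c value compares unlike structures, since the native KO assembly held 4 exons and the native WT assembly 12. Abca8a was the other way round, at 2.43 TPM in WT and unassembled in KO. Less than 2-fold apart were Nr2f2 (7.325 TPM in WT, 10.58 in KO), Gulp1 (8.44 and 15.46 TPM) and Tspyl3 (3.34 and 2.45 TPM).

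In direct cDNA, 4 genes were at least 2-fold higher in KO, against 22.4% of 11599 assembled genes. They were Serpinb11 (0 in WT, 1.66 TPM in KO), Cyba (0.669 and 4.52 TPM), Slco1c1 (0 and 0.338 TPM) and Gulp1 (0.787 and 1.90 TPM). The Slco1c1 value joins separate structures of 5 and 7 exons, neither with the annotated intron chain. Frzb and Cxcl12 were assembled in WT alone, at 0.157 and 0.106 TPM. Grin2c was at 2.955 TPM in WT and 2.077 TPM in KO, and Nr2f2 at 0.343 and 0.552 TPM. Grin2c, Cyba, Nr2f2 and Gulp1 were assembled in WT by both chemistries, and 8 of the 19 genes were assembled in WT by at least 1. Serpinb11 and Slco1c1 were assembled in KO alone. FLAIR, which gives structures with no abundance, listed a transcript in KO and none in WT for 1 of the 19 in native RNA (Serpinb11, against 0.753% of genes) and for 4 in cDNA (Serpinb11, Slco1c1, Tspyl3 and Atoh8, against 4.50%). The reverse, a transcript in WT and none in KO, held for 1 in native RNA (Abca8a, against 2.59% of genes) and for 2 in cDNA (Perm1 and Frzb, against 9.21%). These percentages are over 10357 genes in native RNA and 11050 in cDNA, while several of the 19 had no FLAIR transcript at all. In the StringTie values, only Serpinb11 and Cyba were at least 2-fold higher in KO by both chemistries.

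The Serpinb11 transcripts in KO had 8 exons in the annotated intron chain in both chemistries and by both assemblers. StringTie began them at position 107362246 in cDNA and 107362250 in native RNA on chromosome 1, and FLAIR further downstream, at 107362321 and 107362295. The StringTie ends lie 68 and 64 bp upstream of the RefSeq start, at the capitals in the window printed above. Cyba transcripts with the annotated chain began, by StringTie, 10 to 43 bp downstream of the RefSeq start in both genotypes and both chemistries. By StringTie, the same Gulp1 structure of 10 exons was assembled in all 4 groups.

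**Figure D4:**
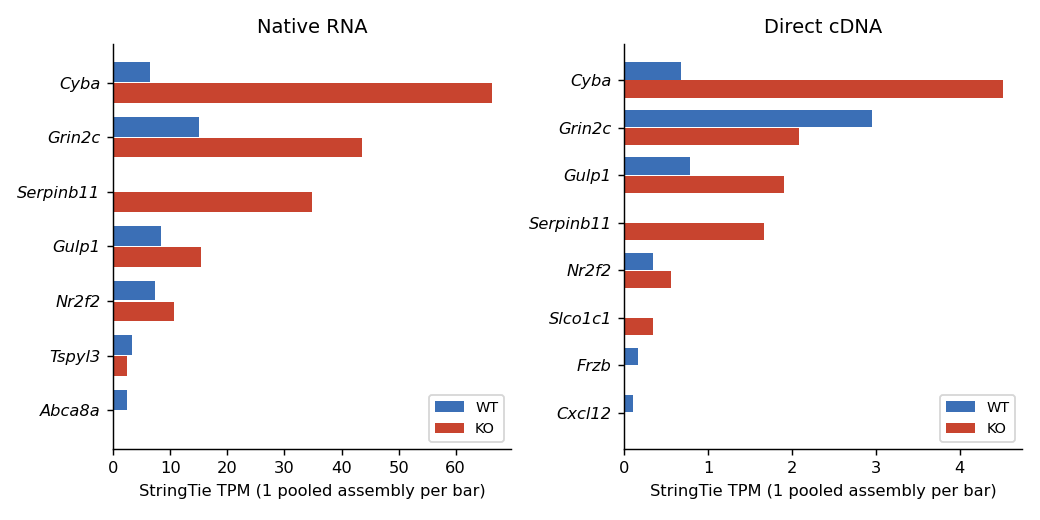
StringTie TPM of the assembled genes in WT (blue) and KO (red) for native RNA (left) and direct cDNA (right), each bar 1 pooled assembly with no error. Serpinb11 has a KO bar and no WT bar in both panels, and Grin2c is higher in KO in native RNA only.

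The protein-coding genes beside the 19, within 100 kb, were tested because the rule did not choose them. Of 30 neighbours, 23 were expressed enough for the test (edgeR quasi-likelihood, adjusted p under 0.05), and 12 of 23 were higher and 3 lower in KO, against 29.9% higher and 25.5% lower among 14828 protein-coding genes and 26.4% and 27.2% among all 18687 genes. Their median log2 difference was 0.28, against 0.03 for protein-coding genes. Without Serpinb7, which was under the filter level in WT, 11 of 22 were higher, and without WT replicate 3, 6 neighbours were lower. Abca9, beside Abca8a and of the same transporter group, rose from 0.308 ± 0.043 to 2.89 ± 0.330 CPM (SD, n = 4 each; log2 difference 3.22, edgeR adjusted p = 2.8e-08). Mndal, beside Ifi203 and sharing exon sequence with it, rose from 0.115 to 1.01 CPM (log2 3.11, edgeR adjusted p = 5.1e-07), and Ifi202b on its other side from 0.453 to 2.99 CPM (log2 2.72, edgeR adjusted p = 4.0e-07). Tmem82, which lies 191 bp from Slc25a34, rose from 0.134 to 1.14 CPM (log2 3.08, edgeR adjusted p = 6.7e-08).

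Serpinb7, the next gene to Serpinb11 and a serpin too, had no counts in any WT library and 0.170, 0.238, 0.235 and 0.195 CPM in KO. Against the WT limit of 3 counts over the group, 0.00660 CPM, its KO mean of 0.209 CPM was at least 31.7-fold higher (edgeR adjusted p = 9.9e-06). Neighbours also went the other way: Lrrc49, beside Thsd4, fell by 1.09 on the log2 scale (edgeR adjusted p = 2.8e-05) and Pde3a, beside Slco1c1, fell by 0.80 (edgeR adjusted p = 0.00052; these 2 and the next were chosen after their values were seen). Mvd, 671 bp from Cyba, was at 99.3 ± 2.53 CPM in WT (SD, n = 4), differed by 0.04 on the log2 scale in KO and was not called (edgeR adjusted p = 0.71).

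**Figure D5:**
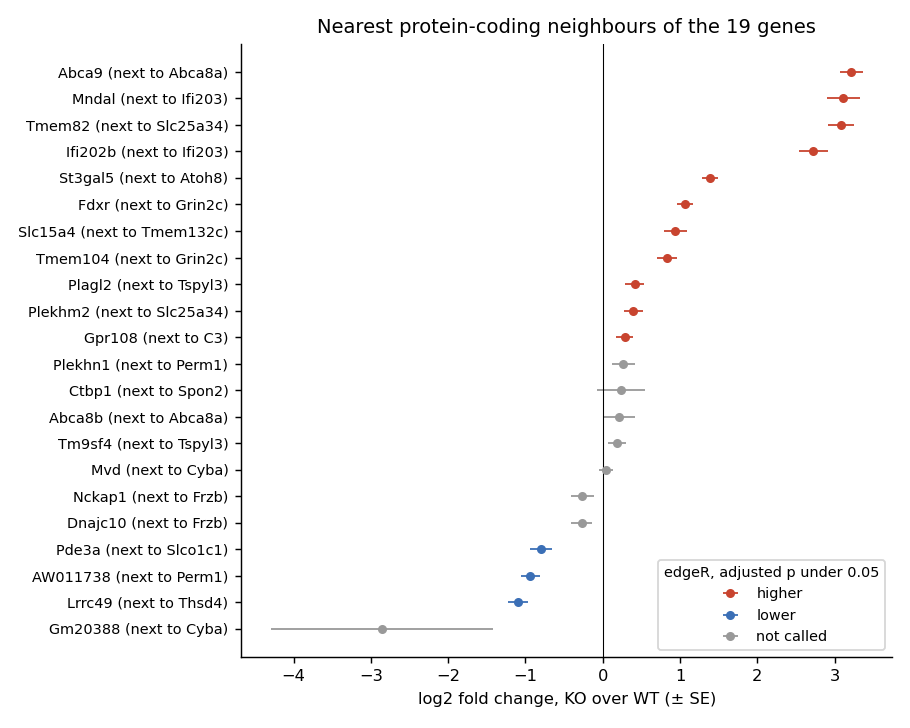
log2 difference KO over WT (x axis, ± SE derived from the edgeR F statistic) of the 22 tested neighbours other than Serpinb7. That gene has no WT counts. Points are red for higher, blue for lower and grey for not called. Abca9, Mndal, Tmem82 and Ifi202b lie at 2.72 or above, and 3 genes are blue.

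Relatives of the 19 by gene-name stem moved in both directions. Of 62 tested relatives, 25 were higher (40.3%) and 14 lower (22.6%) in KO, with a median log2 difference of 0.18, beside 29.9% and 25.5% of protein-coding genes. Abca9, Serpinb7 and Ifi202b count both as neighbours and as relatives. Of the 6 tested clade B serpins other than Serpinb11, 4 were higher, none was lower and the median difference was 1.02; one of the 4 is Serpinb7, which entered the test through KO alone. Serpinb1a was at 0, 0.196, 0.130 and 0.236 CPM in WT and at 3.04, 1.49, 0.0124 and 2.55 CPM in KO (edgeR adjusted p = 0.047), so the genotypes overlapped and KO replicate 3 stood apart. Of the 6 other NMDA receptor subunits, Grin2b rose from 0.646 to 2.79 CPM and Grin2a from 0.844 to 1.44 CPM (edgeR adjusted p = 8.1e-07 and 0.00076), while Grin1, the obligatory subunit, fell by 0.85 and Grin3a by 1.24 on the log2 scale (edgeR adjusted p = 6.6e-05 and 3.9e-05). Among 4 other transporters of the Abca5 group, 1 rose and 2 fell.

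The other lists are given beside the share of all protein-coding genes, 29.9% higher and 25.5% lower in KO. Among 21 interferon-stimulated genes 8 rose and 5 fell (38.1% and 23.8%), and among 12 other BMP and GDF ligands 5 rose and 2 fell (41.7% and 16.7%). Some genes reached the level of the count filter, 0.105 CPM, in no WT library, so that they were tested through their KO libraries and had to be higher. They make up the only rise among 8 other genes of the NADPH oxidase complex (Duox1, at 0.139 CPM in KO) and among 7 germline genes known to be silenced by DNA methylation (Sycp3, at 0.112 CPM), of which 3 fell. Hoxa3, Hoxa4 and Hoxa5 were also of that kind, at 0.178, 0.156 and 0.380 CPM in KO (Hoxa3 was chosen after its values were seen). These levels are under the ceiling of 0.5 CPM. No Hox, germline or interferon-stimulated gene of the lists was among the 19.

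Markers of other cell types that a cortical culture could hold were read beside these counts. The 12 meningeal fibroblast markers summed to 1.34 to 1.68 CPM in WT ladder and 9.71 to 11.7 CPM in KO ladder libraries. Col3a1, a fibrillar collagen, was at 0.0113 (WT) and 1.93 (KO) CPM, and Dcn, a matrix proteoglycan, at 0.150 CPM in KO; both were under the filter level in every WT library. Of the other 7 tested markers, 5 were higher and none was lower; 1 of the 5 is Pdgfrb, which reached the filter level in only 1 WT library (chosen after its values were seen). Choroid plexus and ependyma markers were higher for 4 of 7 and lower for none (2 of 5 without Otx2 and Ttr, under the filter level in WT), with sums of 14.95 to 24.4 CPM in WT and 19.2 to 23.2 CPM in KO. Endothelial and mural markers were higher for 6 and lower for 2 of 9, but summed to 8.43 to 10.9 CPM in WT and 7.21 to 8.25 CPM in KO. Microglial markers were higher for 2 of 3 tested, 1 of them (Csf1r) under the filter level in WT, and summed to at most 2.28 CPM in KO, with C1qa, C1qb and C1qc at 0 in every ladder library. Neuron markers were lower for 8 and higher for 2 of 11, with a median log2 difference of -1.38. Without Slc17a6, under the filter level in WT, and Nefl and Gad2, under it in KO, 6 of 8 were lower and 1 was higher. Snap25, a synaptic vesicle fusion protein, went from 1.60 to 0.314 CPM (edgeR adjusted p = 1.5e-06). Oligodendrocyte lineage markers were lower for 8 and higher for 1 of 12 (7 and 1 of 11 without Mag, under the filter level in KO). Pdgfra, a growth factor receptor that marks oligodendrocyte precursors, dropped from 86.8 to 4.58 CPM (edgeR adjusted p = 5.1e-09). The sum of the lineage markers was nevertheless 1285 to 1855 CPM in WT and 1846 to 2232 CPM in KO, with Olig1 higher at 1383 CPM. Neural crest and Schwann cell markers were higher for 4 and lower for 1 of 8, with sums of 74.6 to 103.3 CPM in WT and 118.8 to 169.5 CPM in KO, and epithelial markers were higher for 1 and lower for 1 of 3. Astrocyte markers were higher for 8 and lower for 2 of 12 (7 and 2 of 11 without Gjb6, under the filter level in WT). They summed to 6174 to 6817 CPM in WT and 6463 to 7309 CPM in KO. Neural progenitor markers were higher for 3 and lower for 3 of 12, with sums of 7259 to 8149 CPM in WT and 5680 to 6016 CPM in KO. The part of such cells in the levels of the 19 genes was not tested.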

How the data were processed

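Levels were measured in 4 WT and 4 KO ladder libraries, 3 standard WT libraries and 4 pooled nanopore assemblies. Samples were grouped by the labels. The deposited files hold estimated counts and TPM per transcript, which the authors made with kallisto, per the submitters' processing notes. Its version, and how the 7 bands were joined, are not given in the sources used here. STAR 2.5.4b, minimap2 2.17 and build GRCm38 are named in those notes too. The deposited long-read structures came from FLAIR and StringTie 2.0, per the file headers, and TPM there is as the authors' StringTie run wrote it.

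Estimated counts were summed per GENCODE M21 gene and divided by the library total to give CPM; targets without annotation (11.9% to 13.4% of ladder counts, 0.548% to 0.583% of standard counts) stayed in totals. KO was tested against WT in ladder libraries on the rounded sums with edgeR 4.0.16 (R 4.3.3): filterByExpr, TMM, quasi-likelihood with robust dispersion, Benjamini-Hochberg threshold 0.05. The procedure was tested on simulated data. Each SE of a log2 difference is the absolute difference divided by the square root of its quasi-likelihood F. It is an approximation, and for the 19 genes it describes and does not test. Standard and ladder libraries were set side by side without a test. Long-read changes used log2(TPM + 1) in native RNA and log2(TPM + 0.1) in cDNA, so folds of low genes are understated. Promoters are from RefSeq, GRCm38.p6. Members, lists and tests were chosen with earlier results of these data known. Named were all 19 genes, 3 genes beside each limit, the 5 neighbours past the threshold with the largest change and up to 2 rises and 2 falls per list. Proteins were not used here. The alternatives tried were other scalings, DESeq2 1.42.0, no filter, other limits, a replicate block and each library left out.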

Additional observations from a re-analysis of the deposited data

Results flagged for a closer look

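In 3 cases, 1 of 4 libraries of a group stood apart from the other 3 by a gap that passed Dixon's 95% limit on its share of the group's range. They came from 38 groups tested (19 genes in 2 genotypes), in which chance gives about 1.9. Grin2c was highest in KO replicate 3, at 24.54 CPM. Serpinb11 was lowest in KO replicate 4, at 8.249 CPM, and Spon2 was lowest in the same library, at 6.388 CPM. All 3 values remain far above the WT ladder libraries.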

How the results depend on the processing

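Which genes met the rule depended on its limits: 6 genes with a WT ceiling of 0.25 CPM, 42 with a ceiling of 1, 54 with a KO floor of 2 CPM, 9 with a floor of 8, and 11 on deposited TPM, 4 of them among the 19. After TMM scaling, or with CPM over annotated counts alone, 17 genes met it, 15 of them among the 19: C3, Cxcl12, Ifi203 and Slc25a34 were lost and Cox8b and Otx2 gained. Leaving out 1 library gave 17 to 20 genes: C3 and Ifi203 were lost without WT replicate 1, Slc25a34 without WT replicate 2, Thsd4 without KO replicate 2 and Atoh8 without KO replicate 3. Lower neighbours numbered 3 to 6 when 1 library was left out (6 without WT replicate 3). Relatives higher in KO numbered 12 of 32 with stems of at most 15 genes. Under a ceiling of 1 CPM, 7 of the 19 were under it in standard libraries. Counting genes with a FLAIR transcript in KO alone left 1 in native RNA, and a pseudocount 10 times larger left 2 in cDNA. The cause was not tested. Counting only genes that reach the filter level in both genotypes, an alternative chosen after seeing the data, left 11 of 22 neighbours, 22 of 59 relatives and 20 of 62 list genes higher. In all, 102 of 112 recomputed counts stayed within 1.5 times. Of 228 recomputed differences of the 19 genes none reversed or moved by over 1 SD. The rule chose these genes for a wide gap in the same libraries, so a reversal was all but excluded in advance and its absence is no support. Same-numbered WT and KO libraries did not deviate together (r = -0.009, 0.054, -0.023 and 0.045), so the numbers were not taken to pair samples; a replicate block gave 4922 genes higher and 5027 lower, against 4926 and 5090 without it. In standard libraries a count of 0 allows up to 0.248 CPM, which limits what can be said of genes under that level.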

Other observations

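The letters GGACT, a common form of the m6A consensus, were counted on the sense strand of the leading annotated transcript. All 19 genes had at least 1, against 87.0% of the 15703 autosomal protein-coding genes with a promoter window. The share was 91.7% among genes at 4 CPM or more in KO and 78.4% among genes under 0.5 CPM in WT. The median was 1.15 per kb in the 19 genes and 1.03 per kb in the 15703. It was 1.07 per kb in those at 4 CPM or more in KO and 0.957 per kb in those under 0.5 CPM in WT. The median length of these transcripts was 3482, 2535, 2971 and 1808 bp, in that order. Whether any of these letters carries the mark was not measured here.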
